A study of Mus musculus with 4 samples.

Results

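DNA replication and S phase genes are the genes whose products mark origins, load and start the replicative helicase, copy the DNA and supply its building blocks. The 39 genes described here were taken by symbol from the deposited count table, which lists 37620 genes, and all 39 were found and all passed the filter on low counts that left 16264 tested genes. RNA-seq compared 2 libraries of WT_CTCF with 2 libraries of MUT_CTCF mouse embryonic stem cells (mESCs). Both lines were made in CTCF-EGFP-AID mESCs, in which auxin degrades the tagged endogenous CTCF, and both carried a vector with CTCF under hygromycin selection. WT_CTCF cells made wild-type CTCF from the vector, and MUT_CTCF cells made CTCF with T668, an O-GlcNAc site, mutated to alanine. Each line was a clone picked because its exogenous CTCF was close to the endogenous level, so a difference between the clones and an effect of the mutation cannot be told apart. Both were grown with serum and LIF on gelatin, and the study's methods give 2 days of auxin for these clones without naming the time for the sequenced RNA. The study names the replicates biological. The p-values here set each difference against a spread between these libraries that edgeR pools largely from other genes (median 55.9 total degrees of freedom). They do not rest on the 2 libraries of each line for a single gene alone.

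In G1, the origin recognition complex (ORC), CDC6 and CDT1 load the MCM2-7 helicase onto origins. At the start of S phase, MCM10, CDC45 and the GINS complex join and switch the helicase on. Polymerases, the PCNA clamp and the RPA complex then copy and protect the opened strands. Many of these genes are transcribed under E2F factors late in G1, and mESCs, which have a short G1, are known for high levels of licensing proteins. The study followed growth and the cell cycle of these lines over several days of culture. It reports slower growth of MUT_CTCF cells, which it ascribes to a longer G1. The RNA of the replication machinery is a natural comparison between the lines, though it may come from another time of culture.

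To show the promoters behind this gene group, promoter windows were taken from RefSeq (build GRCm38.p6, 250 bases before to 50 bases after each start), and 33 of the 39 genes had at least 1 window. Mcm4, Gins1, Gins2, Gins4, Pole and Rfc2 had none. The letters TTTNNCGC, which cover common E2F sites, were searched on both strands. They stood in 14 of 40 windows of these genes, or 35.0%, against 1698 of 32851 windows of all genes, or 5.17%. The genes with these letters were Cdc6, Cdt1, Gins3, Lig1, Mcm3, Mcm5, Mcm6, Mcm7, Orc1, Orc3, Pola1, Pold1, Rfc3 and Tyms. Of the 8 genes of helicase loading, 6 held them, and Mcm4, which had no window, could not be searched. The upstream part of the Mcm5 window (chr8:75109259-75109508, plus strand) is shown because Mcm5 was the member that passed the test below, with E2F letters in capitals, where a match on each strand overlaps the other.
Mcm5: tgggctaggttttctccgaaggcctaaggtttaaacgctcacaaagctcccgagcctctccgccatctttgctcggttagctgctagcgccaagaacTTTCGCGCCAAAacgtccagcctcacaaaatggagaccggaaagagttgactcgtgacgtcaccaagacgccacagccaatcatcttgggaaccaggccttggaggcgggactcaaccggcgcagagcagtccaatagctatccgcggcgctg
Stretches of 30 bases around the same letters are shown for other genes of origin marking and helicase loading, read along each gene's strand and with the match in capitals. They lie at chr11:98908002-98908031 for Cdc6 (plus strand), chr1:128359734-128359763 for Mcm6 (minus strand), chr5:138171849-138171878 for Mcm7 (minus strand) and chr4:108579416-108579445 for Orc1 (plus strand).
Cdc6: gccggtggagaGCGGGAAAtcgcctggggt
Mcm6: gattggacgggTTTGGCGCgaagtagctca
Mcm7: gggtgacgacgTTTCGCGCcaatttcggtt
Orc1: ttcggttagtgGCGCGAAAagttttctcct
Among windows of these genes, CCAAT stood in 60.0% against 37.4% of all windows, and TTTGAA, the cell cycle homology region, in 10% against 17.9%. A core of the CTCF motif (CC, any 3 bases, AGG, any base, GG) stood in 4 of 40 windows, or 10%, against 9.33% of all windows. These matches describe letters in a window and do not show a bound factor.

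Total counts per library lay between 40524694 and 40977464, and scaling factors of edgeR's TMM method lay between 0.994 and 1.01. Ctcf was counted at 18302 and 18669 (normalized) in WT_CTCF and at 18791 and 19325 in MUT_CTCF libraries, a sum of endogenous and vector transcripts that does not check the mutated site. The 8 pluripotent stem cell markers, which include Pou5f1, Sox2 and Nanog, summed to between 2199 and 2213 RPKM (reads per kilobase of exon, scaled to library depth) in every library. Single markers differed under this even sum, since Sox2 was higher and Dppa4 lower after adjustment (log2 fold changes 0.095 and -0.21, edgeR quasi-likelihood adjusted p = 0.0358 and 0.0462), 2 of the 8, and 62.5% had an unadjusted p under 0.05, against 15.3% of all tested genes. The summed level of 8 fibroblast markers was 15.1 and 15.7 RPKM in WT_CTCF and 16.2 and 18.1 RPKM in MUT_CTCF libraries, with Lum at 0 in all. Mesoderm markers summed to at most 5.08 RPKM, and the 3 neural ectoderm markers matched to at most 0.0311 with Fgf5 at 0. Primitive endoderm markers summed to 1.76 and 1.98 RPKM in WT_CTCF and 2.35 and 3.06 RPKM in MUT_CTCF libraries, and trophectoderm markers to 5.90 and 5.36 against 3.87 and 4.23 RPKM. Of the trophectoderm markers 1 of 4 was lower after adjustment, Cdx2, at 2.98 and 3.24 against 1.43 and 1.73 RPKM, and the libraries of Eomes, Hand1 and Elf5 overlapped. The part of any of these markers in the differences below was not tested. In bulk RNA, fewer cells in a phase and less RNA per cell cannot be told apart.

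The level of these genes per exon length spanned from 1.22 to 389 RPKM, and 33 of the 39 were above 10 RPKM (35 with the length of the longest transcript in place of all exons). Mcm5 and Mcm3, at 389 and 360 RPKM over the 4 libraries, were the 2 highest levels of the group. Mcm2 followed at 233.7, Mcm6 at 179 and Mcm7 at 139.9 RPKM, then Cdt1, the loading factor, at 135 RPKM. Rrm2, the regulated subunit of ribonucleotide reductase, was at 126 RPKM, Rpa1 at 111 and Lig1, the ligase that seals Okazaki fragments, at 103 RPKM. Pcna, the sliding clamp, was at 102 RPKM. Levels of the helicase subunits were uneven, with Mcm4 the lowest of the ring at 87.5 RPKM. The order depends on the length used, and 10 of the 39 levels were over 1.5 times higher with the longest transcript. Mcm7 was then at 209 RPKM, above Mcm6, and Pcna at 162, Rrm2 at 159 and Lig1 at 158 RPKM were above Cdt1. Tk1, the thymidine kinase gene, went from 26.8 to 55.9 RPKM. Pola1, the catalytic subunit of the polymerase that lays down primers, had the lowest level at 1.22 RPKM, and 2.01 RPKM with the longest transcript. Orc4 at 1.72 and Fen1, the flap nuclease, at 2.38 RPKM were next, in the other order with the longest transcript (3.16 and 2.43 RPKM). Fen1 shares 78.8% of its exon positions with Gm10143 on the opposite strand, which itself had 51.1 to 68.2 normalized counts, and Gins2 shares 67.3% with Gse1. HTSeq-count sets aside reads that it cannot give to a single gene, and the strand setting of the counts is not given in the sources used here, so the levels of Fen1 and Gins2 are uncertain.

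**Figure D1:**
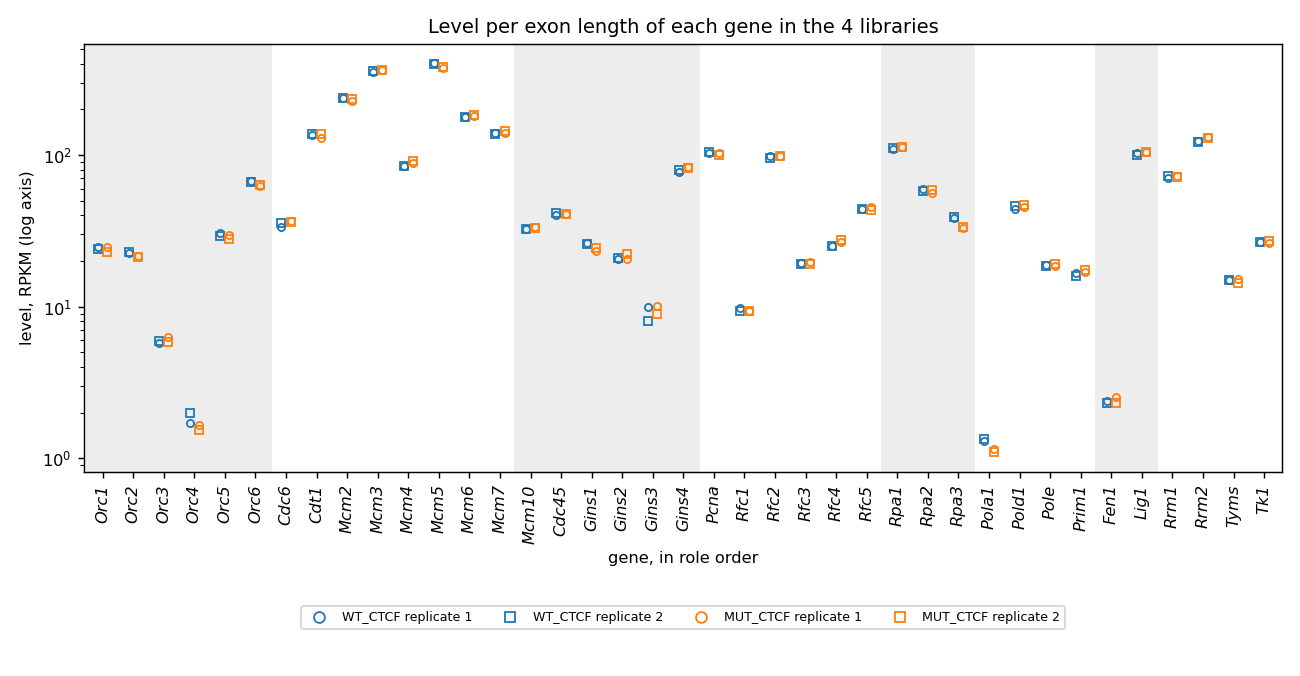
Level of each of the 39 genes in RPKM (vertical log axis) in the 4 libraries, with genes in role order along the horizontal axis and shaded bands marking alternate roles. Mcm5 and Mcm3 are the highest points and Pola1, at 1.22 RPKM on average, is the lowest, with the 4 libraries close together for nearly all genes.

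MUT_CTCF and WT_CTCF mESCs differed little in this gene group. Of the 39 genes, 1 was lower and 0 were higher when the p-values of edgeR's quasi-likelihood test were adjusted over all tested genes and called below 0.05, or 2.56%, against 3.17% called among all tested genes in either direction, 1.61% lower and 1.56% higher. DESeq2 gave the same counts of 1 and 0. Without the adjustment, 3 were higher (Cdc6, Mcm4 and Rrm2) and 4 were lower (Mcm2, Mcm5, Orc6 and Rpa3) at p under 0.05, or 17.9%, against 15.3% of all tested genes, 7.61% higher and 7.65% lower. The study's own criterion joined p under 0.05, not adjusted, to a more than 2-fold change, and by it 0 of the 39 were called, against 1.3% of all tested genes, and 0 with a 1.5-fold limit or by DESeq2. The median log2 fold change of MUT_CTCF over WT_CTCF was 0.013, beside 0.0034 for all tested genes, and 23 of 39 values were above 0. The largest size was 0.23 on the log2 scale. The median size was 0.041, beside 0.11 for all tested genes, which have lower counts on the whole (median 531.7 normalized counts). Libraries of the groups did not overlap for 11 genes that were higher and 9 that were lower, or 51.3%, against 44.7% of all tested genes, 22.3% in each direction.

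**Figure D2:**
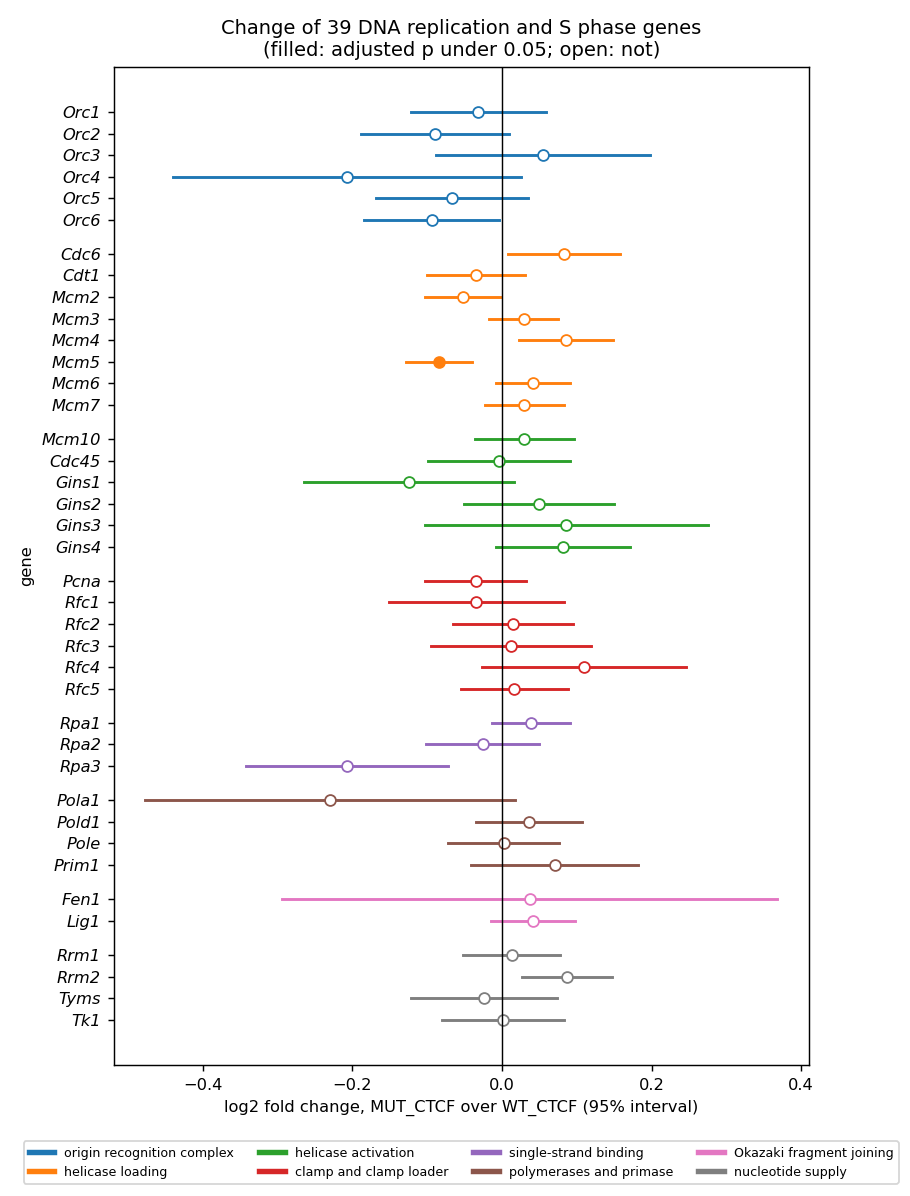
Log2 fold change of MUT_CTCF over WT_CTCF (horizontal axis) with its 95% interval for each of the 39 genes, coloured by role, with a filled point for an adjusted p under 0.05. Mcm5, at -0.085, is the filled point, and the widest interval belongs to Fen1.

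These counts allow a bound on what could have been missed, given the spread that edgeR pools over genes. The 95% interval of the change, from the standard error of edgeR's fit and not adjusted for the number of genes, lay within 10% of no change for 22 of the 39 genes and within 20% for 34. The 5 genes with wider limits were Orc4, Gins3, Rpa3, Pola1 and Fen1, and all 39 intervals lay within 30%. Summed over the 39 genes, the level was 2851 and 2850.0 RPKM for WT_CTCF, and 2832 and 2859 RPKM for MUT_CTCF. The MUT_CTCF libraries lay on either side of both WT_CTCF libraries, so the total did not separate the lines. With 2 libraries a line, the smallest two-sided p of an exact permutation test is 0.333, so sums and ratios are given as values without a test.

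Among the genes of helicase loading, Mcm5 fell, and the other 5 subunits of the same ring did not pass the test, with 4 values above 0. Mcm5 (chromosome 8 of mm9, 77633427 to 77652338, plus strand) encodes the subunit that forms the gate of the ring with MCM2. Its normalized counts were 57219 and 57054 in WT_CTCF against 53344 and 54423 in MUT_CTCF libraries. Neither MUT_CTCF library reached the WT_CTCF values, and the gap exceeded the spread within either line. The log2 fold change of Mcm5 was -0.085 with a standard error of 0.022 (edgeR quasi-likelihood adjusted p = 0.0178), a change of -5.69% with an interval from -8.52% to -2.77%. This call was lost with scaling by library size only, in edgeR's exact test and without a filter (adjusted p = 0.0519, 0.127 and 0.225), and without each library in turn (range over all its alternatives 0.00113 to 0.464), while its log2 fold change stayed between -0.10 and -0.070.

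Mcm4 (chromosome 16, 15623990 to 15637493) showed the opposite direction in the same libraries. It had 12428 and 12429 normalized counts in the WT_CTCF libraries against 12988 and 13393 in the MUT_CTCF libraries. The groups did not overlap, and the 2 MUT_CTCF libraries were farther from each other than the 2 WT_CTCF libraries. Its log2 fold change was 0.086 (standard error 0.031), which did not pass (edgeR quasi-likelihood adjusted p = 0.135), and the interval ran from 1.61% to 10.9%. With an offset for the GC content of exons it passed (log2 fold change 0.098, edgeR quasi-likelihood adjusted p = 0.0298). Over its alternatives that kept all libraries, the adjusted p ran from 0.0298 to 0.400. The offset, added after seeing the data, also raised calls over all tested genes from 515 to 696.

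Mcm2 had 32695 and 32721 normalized counts in WT_CTCF and 31035 and 32052 in MUT_CTCF libraries. Its log2 fold change of -0.052 did not pass (edgeR quasi-likelihood adjusted p = 0.307), and MUT_CTCF replicate 1 lay farther below than replicate 2. Mcm6 had 31434 and 31458 against 32112 and 32617 normalized counts, a log2 fold change of 0.042 (edgeR quasi-likelihood adjusted p = 0.451). Mcm3 had 43276 and 43712 against 44329 and 44433 normalized counts, a log2 fold change of 0.029 (edgeR quasi-likelihood adjusted p = 0.616). For Mcm3 and Mcm6, MUT_CTCF values were both above the higher WT_CTCF value, by a few percent at most. Mcm7 had 25363 and 24629 against 25173 and 25869 normalized counts with overlapping libraries, a log2 fold change of 0.030 (edgeR quasi-likelihood adjusted p = 0.669). A copy elsewhere in the genome covers 80.2% of the longest Mcm7 transcript at up to 97.5% identity, so some of its reads could be shared.

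The make-up of the 6 helicase transcripts can be read within each library. Mcm5 took 28.7% of the summed RPKM of Mcm2 to Mcm7 in each WT_CTCF library and 27.3% in each MUT_CTCF library. Mcm4 took 6.08% and 6.09% in WT_CTCF and 6.47% and 6.55% in MUT_CTCF. These were the genes of the ring with the largest log2 fold changes in each direction, so their shares restate those values. Mcm6 took 12.6% and 12.7% in WT_CTCF and 13.1% in both MUT_CTCF libraries, and Mcm3 took 25.6% ± 0.20 and 26.3% ± 0.30 (SD, n = 2). Mcm2 took 17.1% ± 0.021 and 16.6% ± 0.16, and Mcm7 took 9.93% ± 0.20 and 10.2% ± 0.065 (SD, n = 2), where the WT_CTCF libraries differed by about as much as the lines. Such shares depend on one another, show unequal change and do not say which of the genes changed. The sum of the 6 was 1396 and 1394 RPKM for WT_CTCF and 1371 and 1397 RPKM for MUT_CTCF, which overlap.

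Of the loading factors, Cdc6, the ATPase that brings the helicase to ORC, had 7127 and 7537 normalized counts in WT_CTCF and 7822 and 7712 in MUT_CTCF libraries. Both MUT_CTCF libraries were above both WT_CTCF libraries, but its log2 fold change of 0.083 did not pass (edgeR quasi-likelihood adjusted p = 0.266). It was 0.043 without WT_CTCF replicate 1, so that library carries much of the gap, and 3 stretches elsewhere in the genome cover 56.2% of its longest transcript at up to 95.6% identity. Cdt1 had 12083 and 12343 against 11606 and 12234 normalized counts, with overlapping libraries and a log2 fold change of -0.035.

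**Figure D3:**
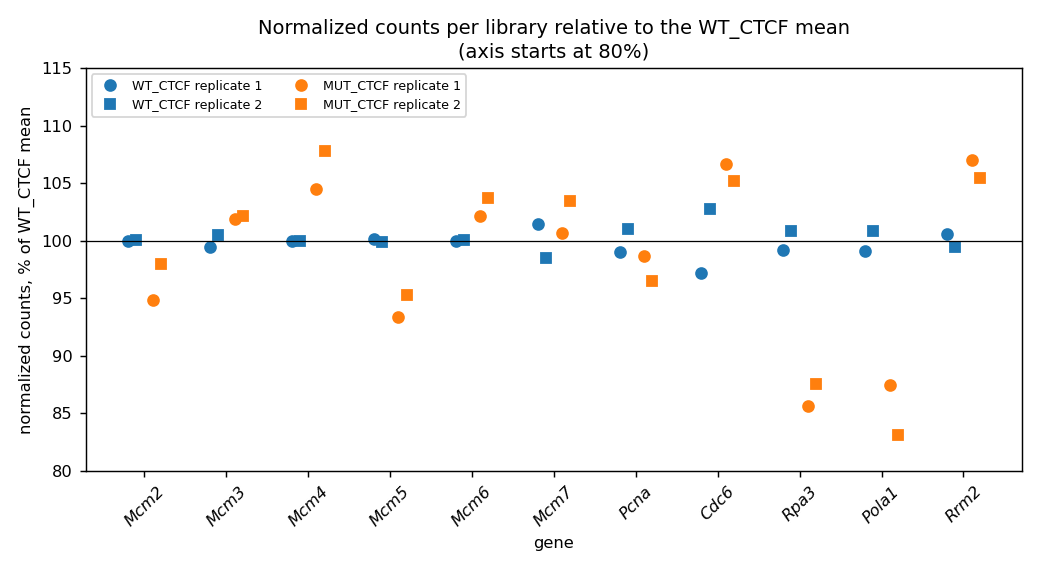
Normalized counts of each library as a percentage of the WT_CTCF mean (vertical axis, which starts at 80%) for Mcm2 to Mcm7, Pcna, Cdc6, Rpa3, Pola1 and Rrm2. MUT_CTCF libraries of Mcm5 lie below and those of Mcm4 and Rrm2 above both WT_CTCF libraries, and those of Rpa3 and Pola1 lie lowest.

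ORC marks the origins, and its 6 genes had log2 fold changes between -0.21 and 0.055 with a median of -0.078. After adjustment none of the 6 passed, and 5 of the 6 values were below 0, where 50.8% of all tested genes had a positive value. Orc6 (standard error 0.045) had 4534 and 4486 normalized counts in WT_CTCF and 4178 and 4272 in MUT_CTCF libraries, a change of -6.32% that did not pass (edgeR quasi-likelihood adjusted p = 0.307). MUT_CTCF libraries of Orc2, Orc4 and Orc6 lay below both WT_CTCF libraries, while those of Orc1, Orc3 and Orc5 overlapped them. Of all tested genes, 22.3% had both MUT_CTCF libraries below both WT_CTCF libraries, and 44.7% did not overlap in either direction. Orc3 had the value above 0 with all libraries. Without single libraries, the signs of Orc1 (up to 0.014) and Orc3 (down to -0.0029) changed. A shared direction of the 6 genes was not tested. Orc4 was counted at 464 to 599 reads per library, and its log2 fold change of -0.21 ran from -0.30 to -0.11 with each library left out.

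Helicase activation genes were also near 0, with log2 fold changes between -0.12 and 0.086, and 0 of 6 passed. Cdc45, whose product is part of the active helicase, had a log2 fold change of -0.0040 and an interval from -6.66% to 6.55%. Mcm10 had 0.030. The 4 GINS genes, whose products form a single complex, had -0.12 for Gins1, 0.050 for Gins2, 0.086 for Gins3 and 0.081 for Gins4. All 4 intervals include 0, so no direction is shown for any of these genes. Gins3 had 783 to 1004 reads per library, and its sign changed without WT_CTCF replicate 2 (-0.067) and without MUT_CTCF replicate 1 (-0.0074).

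Pcna (chromosome 2, 132074898 to 132079050) had 10046 and 10249 normalized counts in WT_CTCF libraries, and 10014 and 9795 in MUT_CTCF libraries. The groups were just apart and differed by about as much as the replicates did, and the log2 fold change was -0.035 (edgeR quasi-likelihood adjusted p = 0.701), with an interval from -6.86% to 2.28%. A copy covers 82.8% of the Pcna transcript at up to 99.3% identity, so its count is uncertain. The 5 genes of the clamp loader had log2 fold changes of -0.034 for Rfc1, 0.015 for Rfc2, 0.012 for Rfc3, 0.11 for Rfc4 and 0.017 for Rfc5, and none passed. Rfc4 was the largest of the group, with an interval from -1.79% to 18.6%.

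RPA coats single-stranded DNA as a trimer, and its subunits had unlike values. Rpa3 (chromosome 6, 8205936 to 8209173), the smallest subunit, had 1768 and 1797 normalized counts in WT_CTCF and 1527 and 1561 in MUT_CTCF libraries. The libraries were well apart, and its log2 fold change was -0.21 (standard error 0.067), or -13.4% with an interval from -21.1% to -4.88%. It did not pass (edgeR quasi-likelihood adjusted p = 0.079), but did with the replicate number as a block (adjusted p = 0.0497). Rpa1 had 24896 and 25111 against 25815 and 25573 normalized counts, a log2 fold change of 0.039, and Rpa2 had -0.026, neither of which passed.

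Polymerase genes did not pass either. Pola1 (chromosome X, 90550106 to 90877494) had 469.7 and 478.1 normalized counts in WT_CTCF libraries, against 414.4 and 393.9 in MUT_CTCF libraries. Its groups were apart, but at this depth the log2 fold change of -0.23 had a standard error of 0.123 (edgeR quasi-likelihood adjusted p = 0.381). Prim1, the primase that works with it, had a log2 fold change of 0.070. Pold1 (0.036) and Pole (0.0024), the catalytic subunits of the lagging and leading strand polymerases, had intervals from -2.38% to 7.74% and from -4.85% to 5.45%. For the joining of Okazaki fragments, Lig1 had 0.041 and Fen1 0.037, the latter with 226 to 252 reads per library and an interval from -18.4% to 29.04%.

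Nucleotide supply genes had log2 fold changes between -0.024 and 0.087. Rrm2 (chromosome 12, 25393106 to 25399011) had 13890 and 13731 normalized counts in WT_CTCF and 14779 and 14564 in MUT_CTCF libraries. Both MUT_CTCF libraries were higher, by more than either pair of replicates differed. However, 2 stretches elsewhere in the genome cover 33.1% of the longest Rrm2 transcript at up to 97.1% identity, so some reads could be shared. The log2 fold change of Rrm2 was 0.087 (standard error 0.030), which did not pass (edgeR quasi-likelihood adjusted p = 0.108). With an offset for GC content, which also raised calls over all tested genes from 515 to 696, Rrm2 passed (edgeR quasi-likelihood adjusted p = 0.0246). Its adjusted p ran from 0.0246 to 0.354 over the alternatives that kept all libraries. Its partner Rrm1 (0.013), the thymidylate synthase gene Tyms (-0.024) and the thymidine kinase gene Tk1 (0.0016) had overlapping libraries. Tk1, a classical S phase transcript, had 5669 and 5670 against 5576 and 5776 normalized counts, and its interval ran from -5.42% to 5.97%, with a copy covering 83.0% of its transcript at up to 96.0% identity.

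Features that the choice of genes did not use were set beside these values. Exons of 25 of the 39 genes had a lower GC content than the median tested gene, which had 50.4%. The 3 genes with a log2 fold change below -0.2, a limit not set in advance, were among the 4 with the lowest GC content. The 3 were Rpa3 at 35.0%, Orc4 at 35.9% and Pola1 at 41.2%, while Orc3, at 39.5%, had a log2 fold change of 0.055. Orc4 and Pola1 also had low levels, at 1.72 and 1.22 RPKM. Their intervals included 0, from -26.3% to 1.74% and from -28.1% to 1.22%. Across the 39 genes, which share the libraries, log2 fold change and GC content had Spearman's rho = 0.22, and over 16243 tested genes rho = 0.055. With the GC offset, the log2 fold change of Rpa3 was -0.18. The level in RPKM had rho = 0.47 with GC content over the 39 genes, so the order of levels moves with base composition. The 14 genes with E2F letters had a median log2 fold change of 0.030, with 9 above 0, and the 19 with a window and without these letters had -0.0040, with 9 above 0. The 6 genes without a window had 0.032, with 5 above 0.

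In the rest of the replication pathway, 40 other genes were tested and 0 were called after adjustment (edgeR's quasi-likelihood test, limit 0.05), against 3.17% of all tested genes, and 0 by DESeq2. Without adjustment 1 was higher and 2 were lower (Pold3, and Pole3 and Ticrr), or 7.5%, against 15.3% of all tested genes. Their median log2 fold change was -0.027, with values from -0.17 to 0.16, and they included further polymerase subunits, the fork factors Timeless and Tipin, the licensing inhibitor Gmnn and the helicase-activating kinase Cdc7 with Dbf4.

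Of 36 regulators of the passage from G1 to S, 2 were lower and 0 were higher at an adjusted p under 0.05, or 5.56%, against 3.17% of all tested genes (1.61% lower). Without adjustment 2 were higher and 4 were lower, or 16.7% against 15.3%, and log2 fold changes ran from -0.12 to 0.91. E2f4, which mainly represses cell cycle genes with the RB family, had 10145 and 9991 normalized counts in WT_CTCF and 9010 and 9564 in MUT_CTCF libraries, a log2 fold change of -0.12 (edgeR quasi-likelihood adjusted p = 0.0476). Cdkn1a, the p21 inhibitor of cyclin-dependent kinases, had 11670 and 11339 against 10796 and 10469 normalized counts, a log2 fold change of -0.11 (edgeR quasi-likelihood adjusted p = 0.0397). For both genes the MUT_CTCF libraries lay below both WT_CTCF libraries, and both calls were lost in DESeq2 (adjusted p = 0.0912 and 0.0567). Both were also lost with library size only, in the exact test and without a filter. Their values without single libraries ran from -0.16 to -0.074 for E2f4 and from -0.14 to -0.093 for Cdkn1a, none of which passed. The largest value of the list, named after the values were seen, was that of Cdkn2c, an inhibitor of CDK4 and CDK6. It was low, with 59.1 and 54.1 normalized counts in WT_CTCF and 86.2 and 126.6 in MUT_CTCF libraries, and its log2 fold change of 0.91 did not pass (edgeR quasi-likelihood adjusted p = 0.0879) though the groups did not overlap. The G1 cyclin Ccnd1 had a log2 fold change of 0.091 (edgeR quasi-likelihood adjusted p = 0.150) and an interval from 1.56% to 11.7%. Ccne1, which drives entry into S phase, had 8942 and 9248 against 9198 and 8949 normalized counts, a log2 fold change of -0.0034 and an interval from -4.96% to 4.73%. E2f1 (0.037), Cdkn1b (0.046) and Ccne2 (0.087) did not pass, and Ccne2 rested on 136 to 196 reads per library.

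Among 30 G2 and mitosis genes, the nearest other part of the cell cycle, 1 was lower and 0 were higher at an adjusted p under 0.05, or 3.33%, close to the 3.17% of all tested genes, with a median log2 fold change of -0.026. The lower gene was Cdc20, the activator of the anaphase-promoting complex, with 17330 and 16799 normalized counts in WT_CTCF and 15139 and 16061 in MUT_CTCF libraries (log2 fold change -0.13, edgeR quasi-likelihood adjusted p = 0.00703). The call held by DESeq2 and without WT_CTCF replicate 2 (-0.15). It was lost when WT_CTCF replicate 1 (-0.11) or either MUT_CTCF replicate (-0.087 and -0.17) was left out, and without a filter on low counts (edgeR quasi-likelihood adjusted p = 0.288). The replication genes and the G2 and mitosis genes were not tested against each other.

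**Figure D4:**
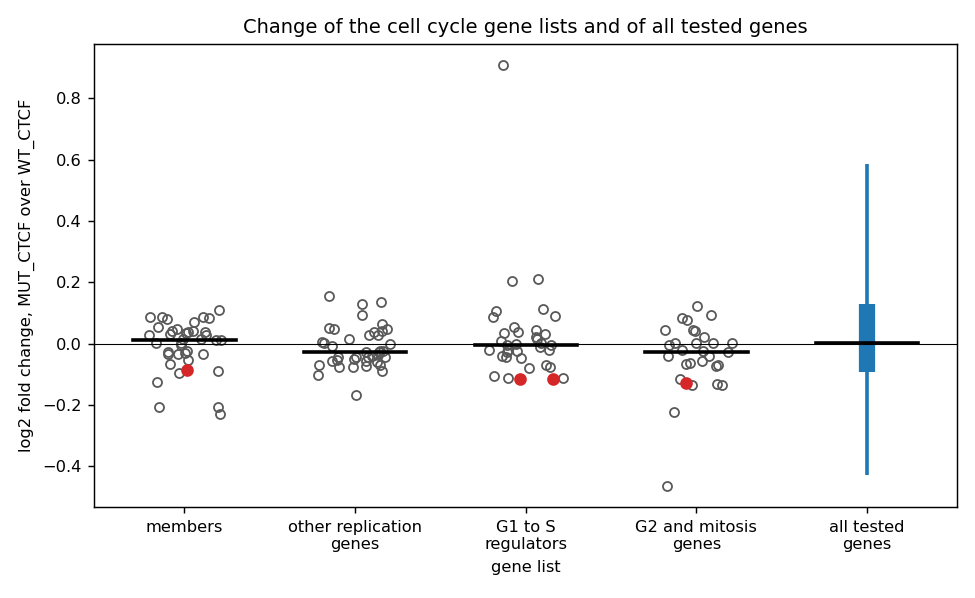
Log2 fold change of MUT_CTCF over WT_CTCF (vertical axis) for each gene of the 39 replication genes, the other replication genes, the G1 to S regulators and the G2 and mitosis genes, with red points at an adjusted p under 0.05 and a black bar at each median, beside the range from the 5th to the 95th percentile of all tested genes (thin bar) and their middle range from the 25th to the 75th (thick bar). All points of the 39 replication genes lie between -0.23 and 0.11, within the range of all tested genes from -0.43 to 0.59.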

How the data were processed

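RNA-seq was measured in 2 WT_CTCF and 2 MUT_CTCF libraries. The authors trimmed reads with Trim Galore 0.4.4 (version from the submitters' processing notes), used STAR with the mm9 genome, and deposited raw counts of uniquely mapped reads per Ensembl gene from HTSeq 0.9.1. Their own edgeR comparison (log2 fold changes, mean log2 expression, p-values and false discovery rates) was not used.

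Groups and replicate numbers came from sample titles, and genes were named from GENCODE M1 (NCBIM37, mm9), which named 37205 of 37620 identifiers. Genes kept by filterByExpr (minimum 10 counts) held 99.96% of counts and were tested with edgeR 4.0.16 (R 4.3.3) glmQLFit and glmQLFTest after TMM, on the line alone, with Benjamini-Hochberg adjustment. Standard errors are the log2 fold change divided by the root of F. The 95% intervals use edgeR's total degrees of freedom (median 55.9, mostly from pooling over genes). Normalized counts are scaled to the mean library, and RPKM uses the union of exons. A gene at 0 could hold up to 3 counts, or 0.0740 CPM in the library with the fewest counts, and such limits cover counting error only. Copies are blastn matches of at least 200 bases and 95% identity outside the gene.

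Values in each library were given for members with an adjusted p under 0.05, the 5 next smallest p, Mcm2 to Mcm7, Pcna and the highest and lowest level, and Orc6, Tk1, Cdt1 and Rpa1 were added after their values were seen. From other lists, genes with an adjusted p under 0.05 and Ccne1, Ccne2, E2f1, Cdkn1a, Cdkn1b and Ccnd1 were named. The members and lists were chosen with earlier results of these data known. Alternatives were DESeq2 1.42.0, its size factors, library size only, edgeR's exact test, no filter, 10 reads in every library, a replicate block, each library left out, a fold limit of 1.5 and another length. The GC offset was added after seeing the data. Only the main edgeR fit, not the alternatives, was tested on simulated data, with changes larger than any among the members.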

Additional observations from a re-analysis of the deposited data

How the results depend on the processing

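Fen1, Pola1 and Orc4 rest on fewer than 600 reads per library and are among the 5 genes whose interval went beyond 20%. The 39 genes had 1 lower call at an adjusted p under 0.05 in edgeR's quasi-likelihood fit, in DESeq2, with DESeq2 size factors, with 10 reads in every library and with the GC offset. It was 0 with library size only, without a filter, in edgeR's exact test and without each library in turn (0 to 0), and 2 with the replicate block. Higher calls were 2 with the GC offset, Mcm4 and Rrm2, and 0 in the other fits with all libraries. That offset also raised calls over all tested genes, from 515 of 16264 to 696 of 16243. No label says that samples of the same number share a batch, and 2 pairs are too few to show it from the data (r = -0.020 between their deviations), so the block was kept as an alternative. With the block, 326 genes were higher and 372 lower over all tested genes.

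Over all tested genes, 253 were higher and 262 lower. These became 141 and 161 in DESeq2 and 26 and 3 without a filter, which tests 23739 genes, and 260 and 152 with library size only, where 63.1% of calls were higher against 49.1%. Without single libraries they ran from 0 to 140 higher and from 0 to 102 lower, with 0 without either MUT_CTCF replicate. Lower calls of G1 to S regulators went from 2 to 0 with library size only, in DESeq2, in the exact test, without a filter and without each library (0 to 0). That of the G2 and mitosis genes went from 1 to 0 without a filter, and without single libraries ran from 0 to 1. The median of the 39 genes was 0.025 with library size only and ran from 0.00071 to 0.010 without single libraries. The cause of these differences was not tested, including the smaller number of libraries or the larger number of genes where named.

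Of 468 recomputed log2 fold changes of the 39 genes, 20 changed sign, in 15 genes whose value was at most 0.086 in size. With library size only the signs of Cdc45 (0.0084) and Ccne1 (0.0090) changed, and with the GC offset those of Pole (-0.0012) and Tk1 (-0.00030). Without single libraries, values ran from -0.080 to 0.014 for Orc1, -0.0029 to 0.11 for Orc3, -0.075 to 0.0026 for Cdt1, -0.017 to 0.0075 for Cdc45, -0.012 to 0.11 for Gins2, -0.067 to 0.25 for Gins3, -0.010 to 0.039 for Rfc2, -0.0025 to 0.025 for Rfc3, -0.0077 to 0.039 for Rfc5, -0.058 to 0.0044 for Rpa2, -0.018 to 0.021 for Pole, -0.034 to 0.10 for Fen1, -0.0069 to 0.032 for Rrm1, -0.073 to 0.023 for Tyms and -0.025 to 0.027 for Tk1. Outside the 39 genes they ran from -0.028 to 0.020 for Ccne1, -0.19 to 0.32 for Ccne2 and -0.0037 to 0.075 for E2f1.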
